A study of Mus musculus with 8 samples.

Results

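Cells given EZM8266 and olaparib together (Combination, 2 libraries) were compared with cells given olaparib alone (Olaparib, 2 libraries), to ask what EHMT1/2 inhibition adds under olaparib. The cells were ID8-OR, mouse ID8 ovarian cancer cells made resistant to olaparib, and each treatment lasted 72 hours. The series holds 8 libraries, and the other 4 came from the same cells with EZM8266 alone (2 libraries) or with the solvent DMSO (2 libraries). The libraries were picked by their titles, and the rows of the count table by a filter on low counts, which kept 6379 of 54146 rows. The labels do not say whether ID8-OR is 1 clone, and give no dose. The title of Combination replicate 2 places it among the Combination libraries, while its treatment field has EZM8267 in place of EZM8266. No label says that replicates are separate cultures, so the p-values reflect how much these libraries vary, and that variation could be technical.

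Olaparib blocks the PARP enzymes, which mark broken DNA with ADP-ribose, and cells that cannot repair breaks by homologous recombination are most sensitive to it. EZM8266 inhibits EHMT1 and EHMT2 (also called GLP and G9a), a pair of enzymes that methylate lysine 9 of histone H3 (H3K9) in chromatin that is kept silent. Loss of this mark is known to release silenced genes and repeats, and in tumour cells RNA from such repeats can set off an interferon response.

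RNA depleted of ribosomal RNA was sequenced, and the table counts fragments on the strand of each annotated row. Most counts lay on rows with at least 50 bases of exon facing an exon on the opposite strand: these rows held 83.8 to 88.6% of the counts of each library. Each row is therefore named here by the gene on the other strand, with the row's own symbol in parentheses. A level is given in CPM, the count relative to the library's TMM-scaled total, and depends on how much of the gene the row covers, so levels are compared between libraries and not between genes. A row was called when its adjusted p from edgeR's quasi-likelihood test, over all 6379 rows, was under 0.05. A difference is the log2 fold change of Combination over Olaparib with its standard error (SE), so a positive value means higher in Combination.

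The table held 1103915 and 973396 counts in the Combination libraries and 1617078 and 1207736 counts in the Olaparib libraries, from 4.64 to 5.40% of the fragments of these libraries. Replicates differed by more than sampling noise in all 4 groups. A group of 13 rows around Gm10800, picked because their counts in Olaparib replicate 2 and DMSO replicate 1 were high, took 0.155 and 0.248% of the counts in Combination, against 0.142 and 2.45% in Olaparib. The libraries also carry sample numbers in their labels, 33 to 36 for those with EZM8266 and 41 to 44 for those without, so whatever these numbers stand for cannot be told apart from EZM8266. Among markers of the ovarian surface epithelium, the row opposite Krt8 held 196 to 362 counts and the row of Vim 59 to 199 counts per library, while Krt7 and Lrrn4 had at most 2. The own rows of Krt18, Krt19 and Wt1 held 10 to 40, 14 to 53 and 13 to 58 counts, and that of Msln 2 to 9. Among fibroblast markers, the row of Col1a1 held 42 to 235 counts, and that of Dcn, the next highest, at most 4. On their own rows, the leukocyte marker Ptprc had at most 2 counts in a library and Cd3e, Adgre1 and Lyz2 were at 0. Since most counts lie on the other strand, low counts on a gene's own row do not show that the gene is silent. The row of Csf1r, a macrophage marker, held 88 to 134 counts and is read here as Hmgxb3, while the row opposite Csf1r held at most 9. In bulk RNA, a change in the share of cells of a kind and a change in RNA per cell cannot be told apart.

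Between Combination and Olaparib 6 of 6379 rows were called (0.0941%), of which 4 were higher (0.0627%) and 2 lower (0.0314%) in Combination. The 4 higher rows were Gdnf and rows opposite Serpinb9b, F13a1 and Trdc, and the 2 lower rows were opposite Thbs1 and Nrn1. DESeq2 called 8 rows (0.125%), the same 6 and a further 2, opposite Rnf213 and Gm20186. At an unadjusted p under 0.05 edgeR picked 243 rows (3.81%), 157 higher (2.46%) and 86 lower (1.35%) in Combination. Over all tested rows the median log2 fold change was -0.01, and 3117 rows (48.9%) were above 0.

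The sequences below are the stretches of coding exon that lie under 3 of the called rows, printed on the strand of the named gene, to show how much of each gene a row can see. They were read from the GENCODE M21 transcripts (GRCm38, the assembly of mm10). The Thbs1 row (Gm29233) covers parts of exons 19 and 20 of the 22 exons of Thbs1, at chr2:118123451-118123539 and chr2:118123916-118124013 on the plus strand. The Serpinb9b row (Gm36099) covers exons 3 and 4 of the 7 exons of Serpinb9b, at chr13:33032916-33033053 and chr13:33033527-33033644 on the plus strand. The F13a1 row (Gm30489) meets 14 bases of coding sequence in exon 5 of the 15 exons, at chr13:36972053-36972066 on the minus strand, and 60 bases of the last exon of a processed F13a1 transcript.
Thbs1 exon 19: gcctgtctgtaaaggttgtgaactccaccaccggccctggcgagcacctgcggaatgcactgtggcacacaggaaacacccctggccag
Thbs1 exon 20: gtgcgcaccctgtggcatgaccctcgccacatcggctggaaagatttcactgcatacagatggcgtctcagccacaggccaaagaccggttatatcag
Serpinb9b exon 3: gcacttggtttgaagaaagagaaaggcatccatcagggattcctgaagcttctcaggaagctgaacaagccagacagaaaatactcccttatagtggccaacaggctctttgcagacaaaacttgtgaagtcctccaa
Serpinb9b exon 4: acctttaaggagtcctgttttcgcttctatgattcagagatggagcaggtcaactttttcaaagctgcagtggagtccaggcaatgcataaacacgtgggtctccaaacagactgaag
F13a1 exon 5: aggacgctgtgtat
With all transcripts counted, exons of the named gene face 74.0% of the exon bases of the Thbs1 row, but 15.5% of the Serpinb9b row and 4.24% of the F13a1 row. The counts do not say where within a row the fragments lie, so for the last 2 rows the fragments may belong to other RNA of the same strand. The same holds for every row named below that faces the named gene over a small part of its exon bases.

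The row opposite Serpinb9b (Gm36099, 1798 exon bases, chr13:33031202-33034560) had 355 and 345 CPM in Combination, against 139 and 117 CPM in Olaparib. Serpinb9b belongs to the serpin B9 family of inhibitors of serine proteases inside the cell. Both Combination libraries were above both Olaparib libraries, with a mean of 350.2 ± 7.42 CPM in Combination and 128 ± 15.4 CPM in Olaparib (SD, n = 2 each). The log2 fold change was 1.45 ± 0.15 (SE), or 2.73-fold, with an edgeR adjusted p of 0.00206. The row of Serpinb9b itself, on the gene's own strand, held 2 and 5 counts in Combination and 1 and 2 counts in Olaparib, too few to test.

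The row opposite F13a1 (Gm30489, 1746 exon bases, chr13:36963239-36973329) had 184 and 166 CPM in Combination, against 67.2 and 71.1 CPM in Olaparib. F13a1 encodes the catalytic subunit of coagulation factor XIII, the transglutaminase that cross-links fibrin. The groups did not overlap, and the row rose by a log2 fold change of 1.34 ± 0.16 (SE), or 2.53-fold, with an edgeR adjusted p of 0.00206. Together with Serpinb9b it made up the 2 called rows among the 4 tested rows of the coagulation and serpin list (28 genes), beside 0.0941% of all rows, a list chosen with these results known, and the other 2, both opposite Serpinb6a, had log2 fold changes of -0.08 ± 0.16 and 0.25 ± 0.52 (SE).

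Gdnf, the secreted neurotrophic factor that signals through the receptor tyrosine kinase RET, has no annotated gene on its other strand (3674 exon bases, chr15:7810846-7837575, plus strand). Its row had 434 and 439 CPM in Combination, against 199 and 207 CPM in Olaparib. The replicates of each group lay close together and the groups far apart, and the row rose by a log2 fold change of 1.10 ± 0.13 (SE), or 2.14-fold, with an edgeR adjusted p of 0.00206. Because the row counts its own strand in a table whose counts lie mostly on the other one, whether these fragments are Gdnf mRNA or RNA from the opposite strand cannot be told apart. Bdnf, another neurotrophic factor, had a log2 fold change of 1.38 ± 0.47 (SE) on its own row, with a mean of 14.4 counts per library and an adjusted p of 1.00.

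The row opposite Trdc (Gm43434, 676 exon bases, chr14:54128298-54146287) had 49.0 and 55.0 CPM in Combination, against 7.15 and 3.95 CPM in Olaparib. Trdc is the constant segment of the T-cell receptor delta chain, and 96 bases of its exons lie under the row. In counts these were 50 and 58 in Combination and 10 and 5 in Olaparib, and the log2 fold change was 3.19 ± 0.39 (SE), or 9.11-fold, with an edgeR adjusted p of 0.00219. The call was lost without Olaparib replicate 2, where the log2 fold change was 2.83 and the adjusted p 0.0553. On their own rows, the T-cell markers Cd3e and Trbc1 were at 0 counts in every library, Cd3d, Cd3g, Cd4 and Lck had at most 2, Cd8a at most 3 and Trac at most 6. The Trdc row itself held 6 and 1 counts in Combination, against 0 and 0 counts in Olaparib, and of the other listed T-cell markers only Cd3e faced a row on the opposite strand, at 0. These own-strand rows lie on the strand with few counts, so whether T-cell RNA took part in the difference was not tested. Summed over the 9 T-cell marker rows on their own strand, the level was 4.74 to 9.79 CPM in Combination and 2.37 to 2.86 CPM in Olaparib. That sum includes the Trdc row itself, at 5.87 and 0.948 CPM in Combination and 0 in Olaparib, and rests on few counts.

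The row opposite Thbs1 (Gm29233, 281 exon bases, chr2:118123451-118124047) had 304 and 308 CPM in Combination, against 662 and 715 CPM in Olaparib. Thbs1 encodes thrombospondin 1, a secreted matrix glycoprotein that restrains vessel growth and activates latent TGF-beta. Both Combination libraries were below both Olaparib libraries, with a mean of 306 ± 3.14 CPM in Combination and 689 ± 37.6 CPM in Olaparib (SD, n = 2 each). The row fell by 1.17 ± 0.14 (SE) on the log2 scale, to 0.444 times its Olaparib level, with an edgeR adjusted p of 0.00206. The Thbs1 row itself held 20 and 22 counts in Combination, against 86 and 59 counts in Olaparib. On that strand the log2 fold change was -1.42 ± 0.32 (SE), with an edgeR adjusted p of 0.222.

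The row of Fars2 (chr13:36117412-36726280), read as Nrn1, had 392 and 382 CPM in Combination, against 684 and 596 CPM in Olaparib. Nrn1 encodes neuritin, a membrane-anchored protein that promotes neurite outgrowth, and 501 of the 5747 exon bases of the row lie over its last exon. A further 115 bases lie over Lyrm4, a factor for building iron-sulfur clusters, and Fars2 itself encodes the mitochondrial phenylalanine tRNA synthetase. Which of the 3 genes gave the counts cannot be told apart from the table. The row fell by 0.73 ± 0.12 (SE) on the log2 scale, with an edgeR adjusted p of 0.0398. It was the least stable of the 6 calls: 10 of 18 other settings lost it. Among these were the fits without either library of Combination, Olaparib or DMSO, with adjusted p between 0.0654 and 0.684.

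**Figure D1:**
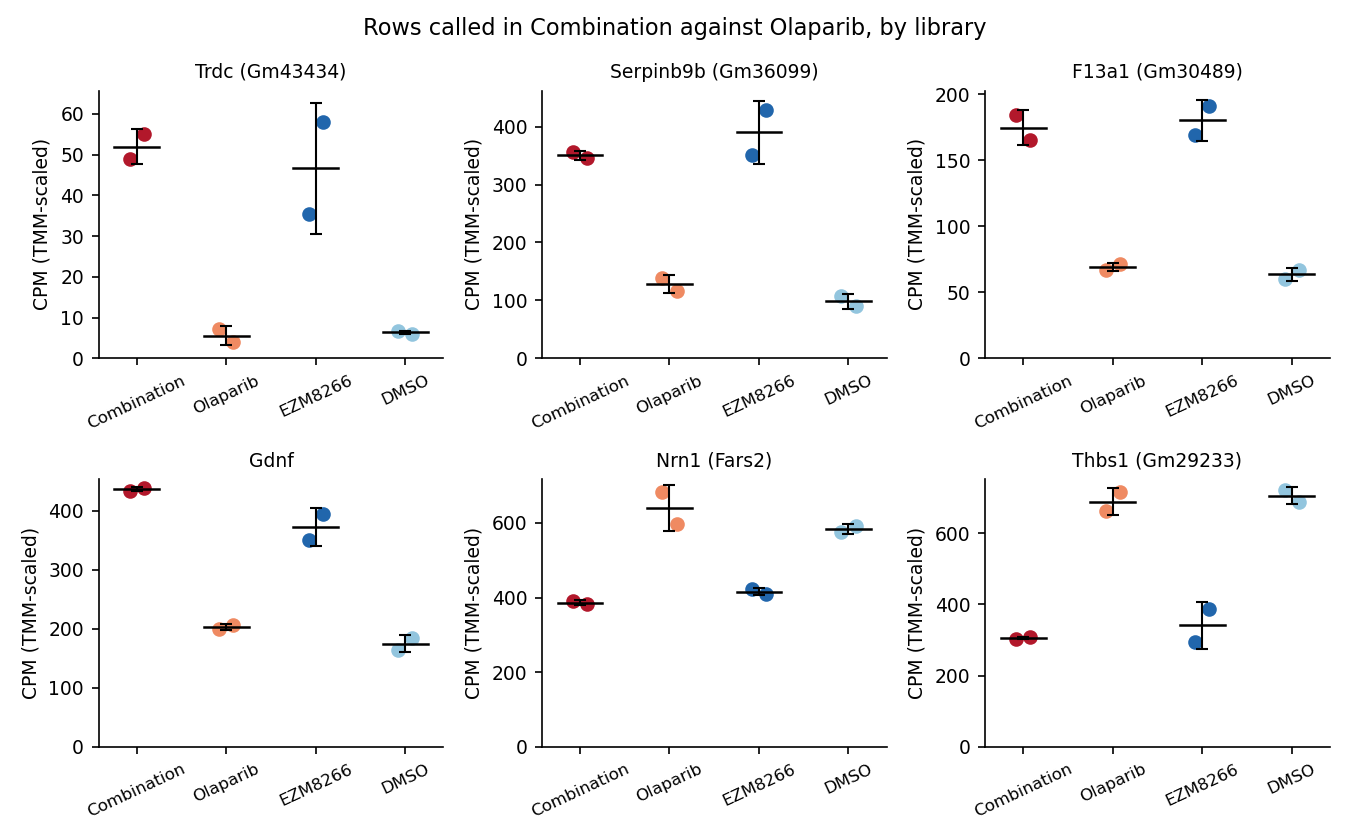
Level of each of the 6 called rows in every library, as TMM-scaled CPM on the vertical axis, with the groups Combination, Olaparib, EZM8266 and DMSO on the horizontal axis. Points are libraries, bars the mean and whiskers the SD of 2 libraries. In each panel the 2 Combination libraries stand on 1 side of the 2 Olaparib libraries, as for Gdnf, with 434 and 439 CPM in Combination against 199 and 207 CPM in Olaparib.

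The libraries are shallow for most rows, and the SE was wider at low counts. How far depth and the spread between replicates each limit the calls was not tested. The median SE of the log2 fold change was 0.40 over all tested rows and 0.15 over the 1329 deeper rows, those averaging 100 counts or more. Of the 6 called rows 5 were among these deeper rows, and the Trdc row, with a mean of 31.0 counts and the largest called difference, was the exception. With 2 libraries a group, groups that do not overlap are no mark of a change at any depth. In 2040 rows (32%) both Combination libraries lay on the same side of both Olaparib libraries, 1017 higher (15.9%) and 1023 lower (16%).

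**Figure D2:**
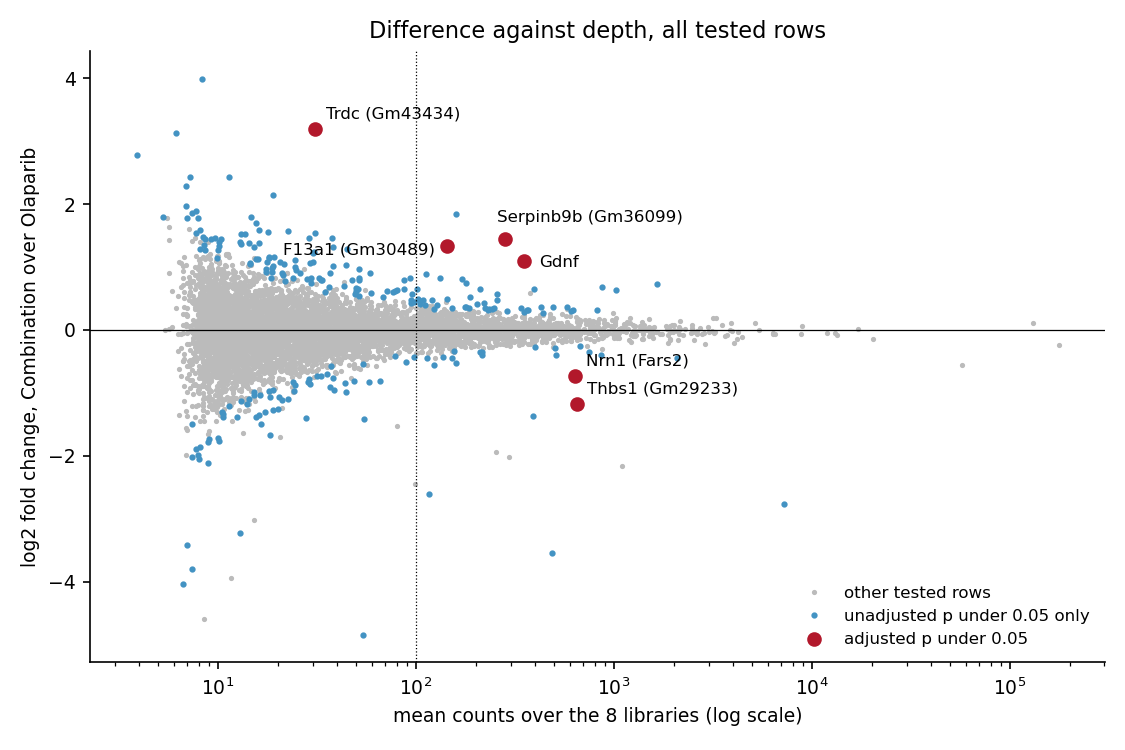
Log2 fold change of Combination over Olaparib (vertical axis) against the mean counts over the 8 libraries (horizontal axis, log scale) for all 6379 tested rows. The dotted line marks 100 counts. The scatter narrows as counts rise, and 5 of the 6 called rows, in red, lie to the right of the line.

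Interferon-response genes lay above 0 as a group, although edgeR called none of them and DESeq2 only Rnf213. These calls depended on the setting: Rnf213 was called in 7 of 18 other settings, among them the fit of the 4 libraries compared (adjusted p 0.0278) and those without EZM8266 replicate 1 (0.0217) or 2 (0.0255), and Sp140 in 3. The list of 46 genes had 8 tested rows on the opposite strand. All 8 had a log2 fold change above 0 (48.9% of all rows did) and 6 had an unadjusted p under 0.05 (3.81% of all rows). Their median was 0.52, beside -0.01 over all rows. The row opposite Rnf213 (A930037H05Rik), an E3 ubiquitin ligase induced by interferon, had 1121 and 1187 CPM in Combination, against 686 and 802 CPM in Olaparib. Its log2 fold change was 0.63 ± 0.12 (SE), with an adjusted p of 0.0848 in edgeR and 0.0147 in DESeq2. The row opposite Sp140 (Gm17017), a reader of histone marks in nuclear bodies, had 63.6 and 60.6 CPM in Combination, against 17.9 and 33.2 CPM in Olaparib, a log2 fold change of 1.29 ± 0.28 (SE) with an adjusted p of 0.222. A second row inside Sp140 (Gm10552) gave 44.1 and 47.4 CPM in Combination, against 19.3 and 19.8 CPM in Olaparib. For each of these 3 rows the Combination libraries were above the Olaparib libraries without overlap, as for 15.9% of all rows. The rows opposite Rnf213 and Sp140 (Gm17017) were also among those named by a rule that took only rows without overlap.

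Among the rest of the list, the row opposite Usp18 (Gm44148), which strips the ubiquitin-like protein ISG15 from its targets, had 26.4 and 21.8 CPM in Combination, against 7.15 and 9.49 CPM in Olaparib. Adar (Chrnb2), the RNA editing enzyme that blunts sensing of double-stranded RNA, had a log2 fold change of 0.33 ± 0.13 (SE) and Ifi35 (Gm11626) one of 0.49 ± 0.22 (SE). The rows of Dtx3l and Parp9, partners in a ubiquitin ligase complex, face each other over 458 bases on opposite strands of the same locus. They count different strands, with 0.54 ± 0.24 (SE) on the row of Parp9 and 0.22 ± 0.26 (SE) on the row of Dtx3l. Whether both genes vary independently was not tested. Eif2ak2 (Gm26637), the kinase PKR that is switched on by double-stranded RNA, had 0.02 ± 0.15 (SE). Outside the list, Trim34a (Gm47248) had 45.0 and 39.8 CPM in Combination, against 16.4 and 14.2 CPM in Olaparib, a log2 fold change of 1.46 ± 0.32 (SE) with an adjusted p of 0.222. The Trim34a row was picked for its small unadjusted p and lack of overlap in this same comparison, so it adds no separate support. Read on the rows of the genes themselves, 7 of 9 interferon-response rows were above 0, 1 had an unadjusted p under 0.05 and none was called. The rows of Parp9 and Dtx3l belong to both readings, and the row with an unadjusted p under 0.05 was that of Parp9. The second reading is therefore not separate from the first.

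Lists next to the interferon response showed smaller values. The row read as Cxcl10 (Art3), a chemokine induced by interferon, had 119 and 110 CPM in Combination, against 70.8 and 61.7 CPM in Olaparib, with a log2 fold change of 0.79 ± 0.20 (SE) and an adjusted p of 0.423. Only 133 of the 3932 exon bases of this row face Cxcl10, so its fragments may belong to other RNA. In the chemokine and cytokine list 5 of 6 rows were above 0, beside 48.9% of all rows, with a median of 0.11. All 4 rows of the list for antigen presentation on MHC class I were above 0, from 0.14 ± 0.11 (SE) for Tapbp (Gm19412), the chaperone that holds the peptide transporter to MHC, to 0.82 ± 0.55 (SE) for the row shared by Psmb8 and Tap2 (Gm20496), and none had an unadjusted p under 0.05. Sensors of nucleic acids had a median of 0.12 over 7 rows, with Tlr3 (Gm45542) at 0.26 ± 0.79 (SE) and Cgas (Gm8093) at -0.07 ± 0.42 (SE).

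**Figure D3:**
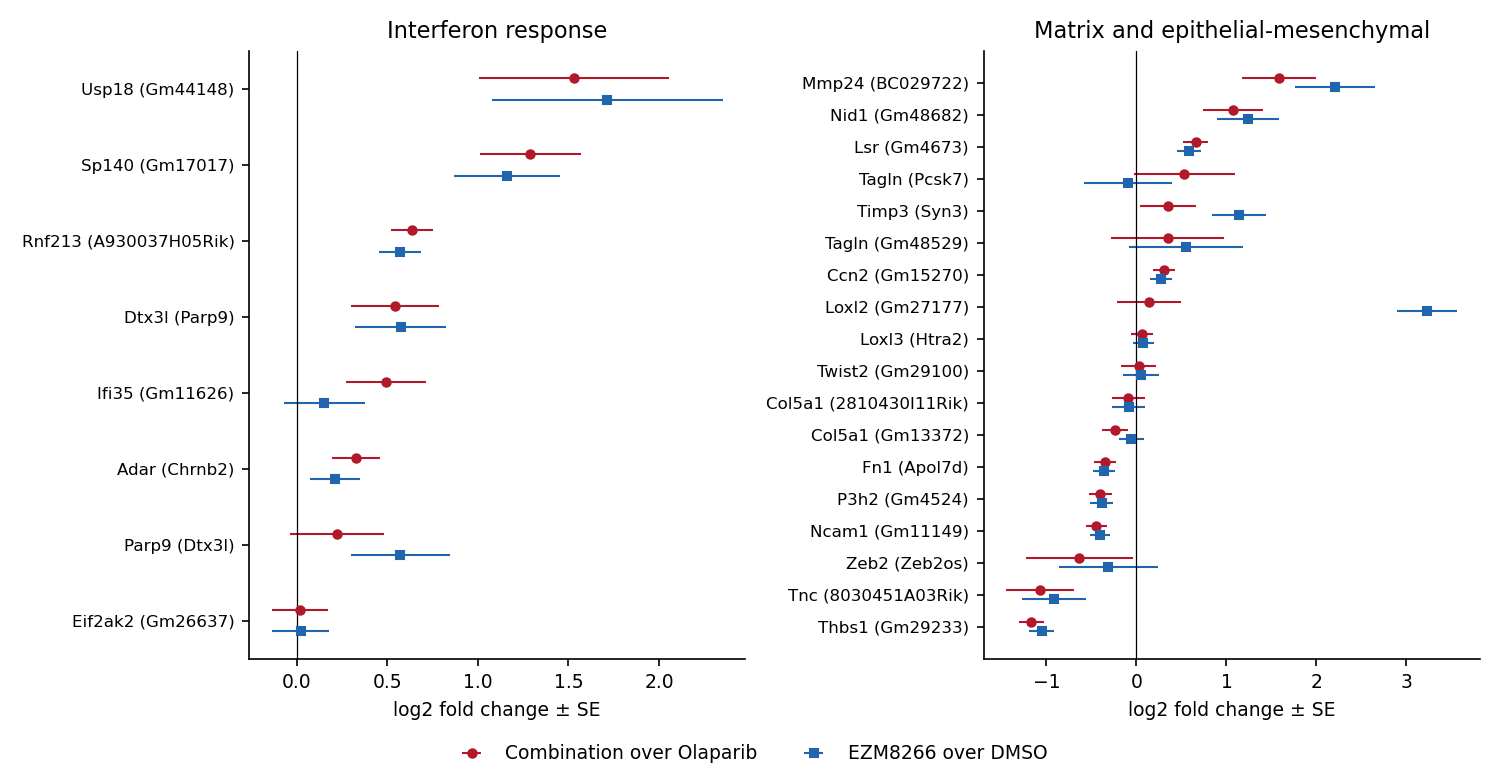
Log2 fold change with its SE (horizontal axis) for each tested row of the interferon-response list (8 rows) and of the matrix and epithelial-mesenchymal list (18 rows), in Combination over Olaparib (circles) and EZM8266 over DMSO (squares). Rows are named by the gene on the other strand, with the row's symbol in parentheses. All 8 interferon rows lie above 0 in both comparisons, while the matrix rows spread to both sides. The row labelled Loxl2 (Gm27177) stands far apart between the comparisons. It faces 1700 exon bases of Entpd4b and only 301 of Loxl2, so its fragments may not be Loxl2 RNA.

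Matrix and adhesion genes spread in both directions. The list of 61 matrix and epithelial-mesenchymal genes had 18 tested rows, 10 above 0 and 8 below, with a median of 0.04, and 9 of the 18 had an unadjusted p under 0.05 (3.81% of all rows). Only the Thbs1 row was called. Fn1 (Apol7d), fibronectin, had 479 and 539 CPM in Combination, against 616 and 680 CPM in Olaparib, a log2 fold change of -0.35 ± 0.12 (SE). Ncam1 (Gm11149), a cell adhesion molecule, had 1473 and 1377 CPM in Combination, against 1926 and 1953 CPM in Olaparib, a log2 fold change of -0.44 ± 0.11 (SE) with an adjusted p of 0.426. P3h2 (Gm4524), which hydroxylates prolines of collagen, had -0.40 ± 0.13 (SE) and Tnc (8030451A03Rik), tenascin C, -1.07 ± 0.38 (SE).

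On the other side of the same list stood Lsr, Mmp24, Nid1 and Ccn2. Lsr (Gm4673), a lipoprotein receptor of tricellular junctions in epithelia, had 412 and 387 CPM in Combination, against 262 and 243 CPM in Olaparib, a log2 fold change of 0.66 ± 0.14 (SE) with an adjusted p of 0.163. Mmp24 (BC029722), a membrane-bound metalloproteinase, had 24.5 and 20.8 CPM in Combination, against 8.58 and 6.32 CPM in Olaparib, a log2 fold change of 1.58 ± 0.41 (SE). Nid1 (Gm48682), a linker of the basement membrane, had 1.07 ± 0.33 (SE) and Ccn2 (Gm15270), connective tissue growth factor, 0.31 ± 0.12 (SE). None of these rows overlapped between the groups, as was the case for 32% of all rows.

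The remaining lower rows without a call were opposite Adamts9, Pdgfc and Atp1b1. Adamts9 (A730049H05Rik), a secreted protease that cuts matrix proteoglycans, had 37.2 and 42.6 CPM in Combination, against 67.2 and 73.5 CPM in Olaparib, with a log2 fold change of -0.81 ± 0.21 (SE) and an adjusted p of 0.426. Pdgfc (Gm16000), a platelet-derived growth factor, had -0.55 ± 0.18 (SE) and Atp1b1 (Nme7), a subunit of the sodium pump, -0.39 ± 0.13 (SE). The rule also took Gm10719, of the group around Gm10800, with 2.94 and 3.79 CPM in Combination and 10.7 and 189.7 CPM in Olaparib. That value rests on Olaparib replicate 2: without it the log2 fold change was -1.66, against -4.84 with it.

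Drug efflux was represented by 3 rows, all above 0. The row opposite Abcb1a (Gm42686), the P-glycoprotein pump that exports many drugs, olaparib among them, had 47.0 and 51.2 CPM in Combination, against 15.02 and 20.6 CPM in Olaparib. Its log2 fold change was 1.47 ± 0.27 (SE), with an adjusted p of 0.0848 in edgeR and 0.290 in DESeq2. Its paralog Abcb1b (Gm5106) had 26.4 and 37.0 CPM in Combination, against 25.03 and 22.1 CPM in Olaparib, a log2 fold change of 0.42 ± 0.30 (SE), and Abca3 (D330041H03Rik) had 0.15 ± 0.17 (SE). Abcb1a and Abcb1b are near copies of each other, and how the authors' counting placed fragments shared by both is not known.

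Further higher rows without a call came from varied genes. Smpd3 (Prmt7), a neutral sphingomyelinase, had 177 and 153 CPM in Combination, against 101 and 86.2 CPM in Olaparib, a log2 fold change of 0.82 ± 0.15 (SE) with an adjusted p of 0.0876. The row opposite Gm20186 (Gm26809) had 1695 and 1763 CPM in Combination, against 948 and 1134 CPM in Olaparib, a log2 fold change of 0.73 ± 0.13 (SE) with an adjusted p of 0.0848 in edgeR and 0.00504 in DESeq2. C130026I21Rik (A530040E14Rik) had 42.1 and 38.9 CPM in Combination, against 15.02 and 12.6 CPM in Olaparib, with an adjusted p of 0.0968. The rule that named these rows took only rows whose groups did not overlap, as was the case for 32% of all rows. Prmt7, whose symbol the Smpd3 row carries, is itself an arginine methyltransferase, and 247 of the 6125 exon bases of the row lie over Smpd3.

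The drug targets gave little signal in this table. EHMT inhibitors block the enzymes without removing their RNA, so these rows do not check the labels. The Ehmt2 row had 17.6 and 8.53 CPM in Combination, against 12.2 and 11.9 CPM in Olaparib, a log2 fold change of 0.12 ± 0.46 (SE). Parp1 had 18.6 and 15.2 CPM in Combination, against 25.7 and 20.6 CPM in Olaparib, a log2 fold change of -0.46 ± 0.47 (SE). The rows of Ehmt1 and Parp2 had means of 5 and 4.75 counts per library and were not tested.

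Genes that write, read or erase H3K9 methylation were not called. Of 11 tested rows on the opposite strand 3 were above 0, beside 48.9% of all rows, and 1 had an unadjusted p under 0.05, with a median of -0.18, and without Combination replicate 1 the median was 0.10. Setdb1 (Gm37500), another H3K9 methyltransferase, had 9.79 and 18.005 CPM in Combination, against 25.7 and 23.7 CPM in Olaparib, a log2 fold change of -0.82 ± 0.37 (SE). A second row over Setdb1 (Cers2) had 0.19 ± 0.21 (SE). Atf7ip (Gm44140), the cofactor of Setdb1, had -0.59 ± 0.30 (SE), Wiz (Gm26858), a zinc finger partner of the EHMT complex, -0.30 ± 0.29 (SE) and Suv39h1 (Gm14820) 0.06 ± 0.12 (SE).

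No row of the DNA repair lists was called by edgeR or DESeq2. The list for homologous recombination and fork protection had 16 tested rows, with a median of 0.15. Of these 13 (81.2%) were above 0, beside 48.9% of all rows, and 2 (12.5%) had an unadjusted p under 0.05, beside 3.81% of all rows. Zranb3 (Gm28800), which remodels stalled forks, had 39.2 and 34.1 CPM in Combination, against 26.5 and 21.3 CPM in Olaparib, a log2 fold change of 0.61 ± 0.28 (SE). End joining genes had a median of -0.02 over 7 rows, with 53BP1 (Trp53bp1, read from Tubgcp4) at -0.09 ± 0.15 (SE), and the PARP family list one of 0.03 over 5 rows, with Parp4 (Gm16573) highest at 0.33 ± 0.15 (SE).

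Cell cycle genes stood near 0 on well-counted rows. Ccnd1 (LTO1), cyclin D1, had 2946 and 2812 CPM in Combination, against 2504 and 2551 CPM in Olaparib, a log2 fold change of 0.19 ± 0.11 (SE). Kif20a (Cdc23), a mitotic kinesin, had -0.10 ± 0.11 (SE) and Ccna2 (Exosc9), cyclin A2, -0.05 ± 0.14 (SE). Over 11 rows the median was -0.05, the range -0.14 to 0.19, and none had an unadjusted p under 0.05. Lists for cholesterol synthesis (6 rows, median -0.04) and for lysosome and autophagy (14 rows, median -0.01) had no called row either. Of all 19 lists 3 held a row called by edgeR on the opposite strand, DESeq2 added only Rnf213 to the called list members, and the medians of the 11 lists with at least 5 rows ran from -0.18 to 0.52.

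**Figure D4:**
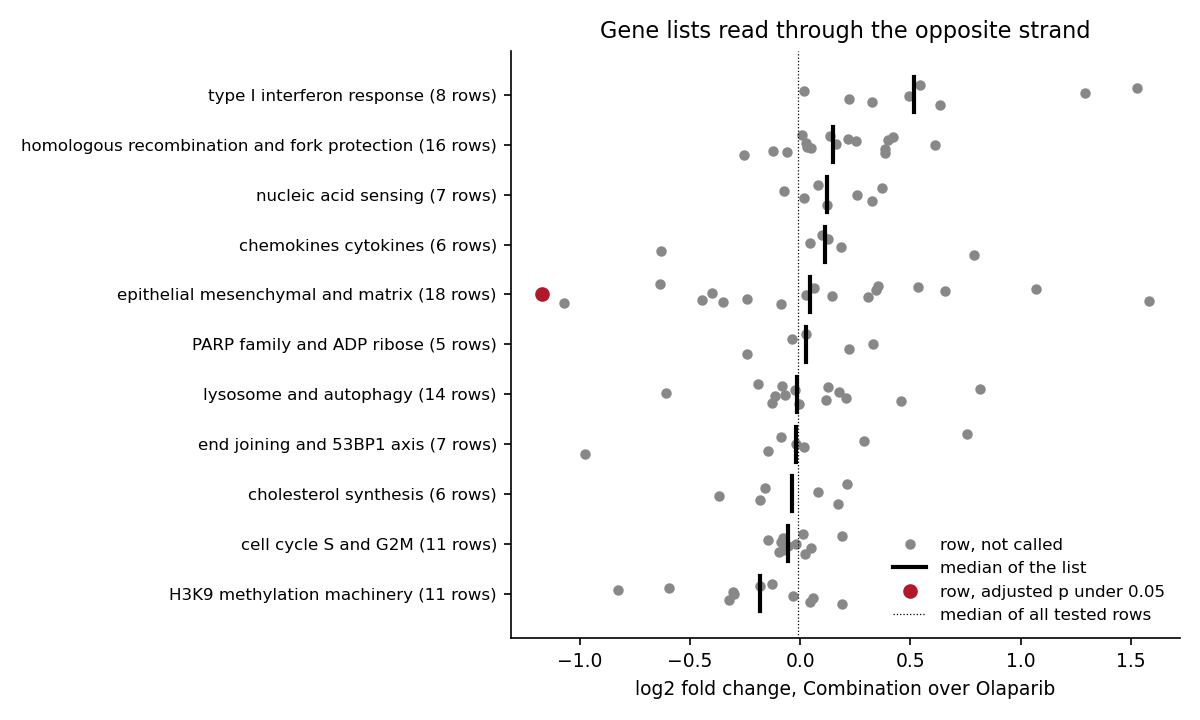
Log2 fold change of Combination over Olaparib (horizontal axis) for every tested row of the 11 lists with at least 5 rows read on the opposite strand. Points are rows, thick bars the list medians, and the dotted line the median of all 6379 rows. The interferon list has the highest median, 0.52, and the H3K9 list the lowest, -0.18, and the called Thbs1 row is drawn in red.

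The same addition was measured without olaparib, as EZM8266 against DMSO, in 4 libraries that Combination against Olaparib does not use. There 13 rows were called (0.204%), and 5 of them were also called under olaparib, which is 38.5% of the rows called without olaparib and 83.3% of those called with it. All 13 had the same sign under olaparib, beside 57.3% of all rows, and 12 of the 13 had an unadjusted p under 0.05 there, beside 3.81%. Both comparisons set libraries numbered 33 to 36 against libraries numbered 41 to 44. A difference tied to these numbers would recur in both and cannot be told apart from EZM8266. The log2 fold changes of EZM8266 over DMSO were 1.99 ± 0.16 for Serpinb9b, 1.49 ± 0.16 for F13a1, 1.09 ± 0.13 for Gdnf, 2.86 ± 0.38 for Trdc and -1.05 ± 0.14 (SE) for Thbs1. The Nrn1 row, not called there, had -0.49 ± 0.12 (SE) with an adjusted p of 0.229. The interferon rows had a median of 0.57 without olaparib, with 8 of 8 above 0, beside 0.52 with it.

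Across rows, the log2 fold changes of Combination over Olaparib and of EZM8266 over DMSO had a Pearson r of 0.67 over the 1329 deeper rows and of 0.45 once the rows of the group around Gm10800 were left out. Over all 6379 rows r was 0.29 and 57.3% had the same sign. Rows are not independent replicates, and the 2 differences share the fit and the scaling, so these values are a description.

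Whether olaparib alters the EZM8266 effect was tested as an interaction, the log2 fold change of Combination over Olaparib minus that of EZM8266 over DMSO. edgeR called 0 of 6379 rows (0%), with 103 at an unadjusted p under 0.05 (1.61%), and DESeq2 called 1 (0.0157%). That row was Gm27177, which lies over 1700 exon bases of Entpd4b and 301 of Loxl2, a lysyl oxidase that cross-links collagen. It had 19.6 and 22.7 CPM in Combination, against 18.6 and 19.8 CPM in Olaparib. Without olaparib it had 109.6 and 73.5 CPM in EZM8266, against 5.71 and 12.6 CPM in DMSO. The groups overlapped under olaparib and stood far apart without it. Its interaction was -3.09 ± 0.49 (SE), with an adjusted p of 0.195 in edgeR and 0.0145 in DESeq2. Entpd4b has a close paralog, Entpd4, so how its fragments were placed is uncertain.

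For the 6 called rows the interaction ran from -0.54 ± 0.22 for Serpinb9b to 0.33 ± 0.59 (SE) for Trdc, and the smallest unadjusted p was 0.0274, for Serpinb9b. For Gdnf it was 0.02 ± 0.18 (SE) and for Thbs1 -0.12 ± 0.19 (SE), and a p above the threshold does not show that the effects were equal. Besides Gm27177, 7 rows were called without olaparib and not with it. In 3 of them the values with and without olaparib were close: the log2 fold changes under olaparib were 1.47 ± 0.27 for Abcb1a (Gm42686), 0.73 ± 0.13 for Gm20186 (Gm26809) and 0.82 ± 0.15 (SE) for Smpd3 (Prmt7), and without olaparib 1.53 ± 0.27, 0.77 ± 0.13 and 0.87 ± 0.15 (SE). The other 4 were Pax8 (opposite Gm13415), Fam117b (opposite Ica1l), Gm49314 and Cyren (opposite Tmem140). Under olaparib their log2 fold changes were 2.15 ± 0.51, 0.92 ± 0.42, 1.703 ± 0.446 and 0.65 ± 0.15 (SE), and without olaparib 3.58 ± 0.52, 2.55 ± 0.41, 3.05 ± 0.52 and 0.90 ± 0.15 (SE). None of these 7 interactions passed the threshold in edgeR.

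**Figure D5:**
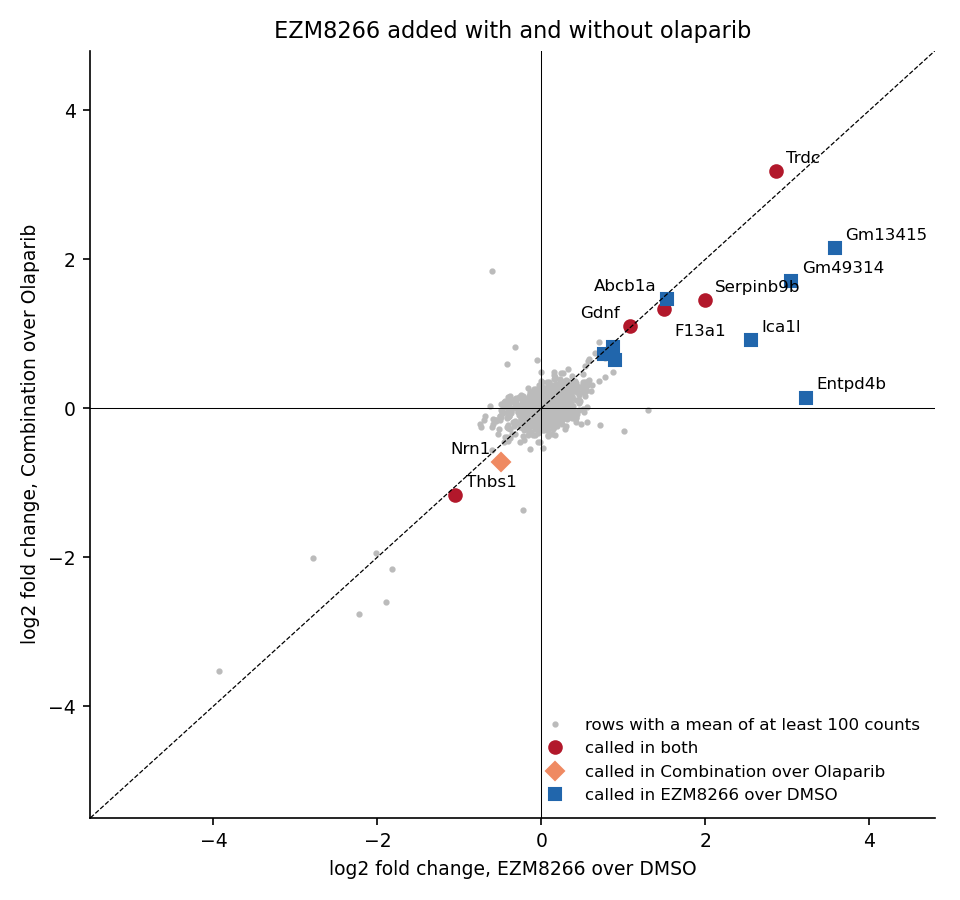
Log2 fold change of Combination over Olaparib (vertical axis) against that of EZM8266 over DMSO (horizontal axis) for the 1329 deeper rows and for every called row, with the line of equal values dashed. Labels give the gene on the other strand, or the row's symbol where there is none. Gdnf, F13a1, Abcb1a and Thbs1 lie near the line, and the row over Entpd4b and Loxl2 lies far below it, at 0.14 under olaparib and 3.23 without.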

How the data were processed

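Total RNA of 8 libraries was depleted of ribosomal RNA and sequenced as read pairs, per the labels' protocols. Per the submitters' processing notes, the authors used FastQC 0.11.8, HISAT2 2.1.0, MultiQC 1.7, Subread 1.6.2 and the build mm10. Per the file headers, the deposited values are whole-number counts of fragments per gene over GENCODE M18 exons, with strand setting 1 and a fragment counted for every gene it overlaps. The counts as deposited are not normalized. Levels in CPM were computed here. Rmrp, an abundant RNA opposite an exon of Ccdc107, had 1.21 to 1.53% of the counts of this pair in the 4 libraries compared and the Ccdc107 row the rest, so rows were read through the other strand.

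Symbols came from GENCODE M21 (54079 of 54146 rows matched). Rows were fitted in edgeR 4.0.16 (R 4.3.3): all 8 libraries, 4 group means, TMM scaling, filterByExpr (minimum count 10, minimum total 15), quasi-likelihood F test, two-sided, Benjamini-Hochberg adjusted p under 0.05 over all 6379 rows. DESeq2 1.42.0 was an alternative. On simulated data for Combination against Olaparib (6379 rows), 33 of 100 rows changed by a log2 fold change of 1 were recovered, and 82 of 100 changed by 2, with 6 false calls. For rows with at least 100 counts these were 20 of 22 and 27 of 27. The simulated spread followed the trend over rows of similar level, without differences between libraries such as that in the rows around Gm10800. Many more rows were changed than were called in the data, which loosens the adjusted threshold. Recovery in the data may therefore be lower.

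The comparison, the 19 gene lists (623 genes) and the rule for named rows were chosen with earlier results of these data known. The rule takes all rows called in this comparison, in EZM8266 against DMSO or in Combination against DMSO, the drug targets, the 8 rows of each direction with the smallest unadjusted p among rows not called (a mean of at least 20 counts, groups not overlapping, at least 50 bases over an opposite exon) and up to 4 members of each list. Further list members named in the text were chosen after their values were seen. No set test was run. One member of the homologous recombination list is not reported here.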

Additional observations from a re-analysis of the deposited data

How the results depend on the processing

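Of the 6 calls, Serpinb9b, F13a1, Gdnf and Thbs1 held in all 18 other settings tried, with adjusted p up to 0.0490. Trdc was lost in 2: without Olaparib replicate 2, and without the pair of libraries rich in Gm10800 (adjusted p 0.0622). Nrn1 (Fars2) was lost in 10, among them RLE scaling (0.0510) and a filter of 1 CPM (0.0785). Rows higher in Combination (4) and lower (2) numbered 22 and 20 when low counts were not filtered, 21 and 19 with strand leakage as a covariate, and 8 higher in a fit of the 4 libraries compared. Lower rows numbered 1 with RLE scaling and 1 without both libraries rich in Gm10800. Leaving out each library in turn gave 3 to 11 higher rows (11 without EZM8266 replicate 2 and 9 without replicate 1) and 1 to 3 lower rows. The cause was not tested.

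For EZM8266 against DMSO (12 higher, 1 lower), there were 27 and 15 with no filter, 30 and 16 with the leakage covariate, 3 and 0 in a fit of those 4 libraries, and 3 and 0 without both libraries rich in Gm10800. Lower rows were 2 with DESeq2 and 2 with the 1 CPM filter, and leaving out each library gave 4 to 14 higher and 1 to 10 lower (10 without EZM8266 replicate 1). The interaction (0) gave 1 with DESeq2, 7 with no filter, 1 with the 1 CPM filter and 0 to 1 leaving out each library. Leaving out each library, the H3K9 list median ran from -0.34 to 0.10, 0.10 being without Combination replicate 1.

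With the replicate number as a block, 4 rows were higher and 1 lower in Combination, Nrn1 being lost (adjusted p 0.0877). The labels do not say that a number marks a shared culture. Same-numbered Combination and Olaparib libraries deviated together (r = 0.36), but DMSO went against the others (-0.66 with Olaparib, -0.50 with EZM8266 and -0.06 with Combination). A block with the DMSO numbers crossed, added after seeing the data, as was leaving out both Gm10800-rich libraries, gave 31 higher and 16 lower rows in Combination, 53 and 31 for EZM8266 against DMSO, and 3 for the interaction. The median SE was 0.40, and a simulated log2 fold change of 1 was recovered in 33 of 100 rows.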

Other observations

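Other lists held few rows and no call. Of the genes of the unfolded protein response, Hsp90b1 (1810014B01Rik), the chaperone GRP94, had 2894 and 2795 CPM in Combination, against 3109 and 3002 CPM in Olaparib, a log2 fold change of -0.10 ± 0.11 (SE). The row read as Ddit3 (Mars), the stress factor CHOP, had -0.26 ± 0.30 (SE), and only 68 of its 3423 exon bases face Ddit3. Among p53 targets, Rrm2b (Gm49085), a ribonucleotide reductase subunit, had 46.0 and 50.2 CPM in Combination, against 57.9 and 76.7 CPM in Olaparib, a log2 fold change of -0.48 ± 0.25 (SE). The 3 rows of KRAB zinc finger genes, which recruit H3K9 methylation to repeats, had -0.46 ± 0.33 and 0.00 ± 0.45 (SE) for Zfp738 (Gm48095 and Gm26587) and -0.21 ± 0.24 (SE) for Zfp874b (Gm48899). The row of Kcnq1ot1, an imprinted noncoding RNA that faces exons of Kcnq1, had -0.23 ± 0.54 (SE).

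The Ehmt2 row had wide errors. EZM8266 over DMSO was -1.40 ± 0.48 (SE), beside 0.12 ± 0.46 (SE) for Combination over Olaparib, and the interaction was 1.52 ± 0.67 (SE), with an unadjusted p of 0.0401 and an adjusted p of 1.00.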
